A study of Homo sapiens with 24 samples.

Results

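Expression of the interleukin-1 (IL-1) axis and of the inflammatory caspases was examined as 10 genes, listed by name for their roles. Earlier results of these data were known when the genes were chosen. They were the agonists IL1A and IL1B, the related cytokine IL33, the antagonist IL1RN, the receptor chains IL1R1 and IL1RAP, the kinase IRAK2, the caspases CASP1 and CASP4 and the sensor NLRP3. All 10 were found by Entrez identifier among the 25702 identifiers counted, and all were among the 13356 genes that passed the filter on low counts. IL33, IL1RN and NLRP3 were low without 4-hydroxytamoxifen (4OHT) and would not have passed the filter on the 12 libraries without it.

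The cells were IMR90, an established line of human diploid lung fibroblasts, at passage 23 to 28. Every culture carried ER:HRAS(G12V), a fusion of oncogenic HRAS to an oestrogen receptor domain that 4OHT switches on, and RNA from 24 cultures was sequenced in 4 groups of 6 biological replicates. Growing cells carried the MSCV vector and received no agent, while shHMGA1 cells carried the MSCV miR30 hairpin against HMGA1, a chromatin architectural protein, and likewise received no agent. RIS cells (RAS-induced senescence) carried the vector and RIS+shHMGA1 cells carried the hairpin, both with 4OHT for 6 days. No culture without ER:HRAS(G12V) received 4OHT, so that an effect of RAS and one of 4OHT itself cannot be told apart here. The control construct was the vector, and 1 hairpin was used, so that an effect of the hairpin on HMGA1 and one on another transcript cannot be told apart here. The target sequence printed for it in the study's methods was found by exact match in a GENCODE transcript of HMGA2, the related gene, and in no transcript of HMGA1.

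Total counts ranged from 8698070 to 23103424 per library, and no pair of replicates agreed within sampling noise. HMGA1 lay between 54.4 and 262 CPM, which are counts scaled to library size, in the hairpin libraries and between 639 and 861 CPM in the vector libraries. It was lower in numbers 5 and 6 of the hairpin groups (54.4 to 75.1 CPM) than in the other numbers (98.7 to 262 CPM). HMGA2 lay between 521 and 790 CPM in the hairpin libraries and between 573 and 1116 CPM in the vector libraries, and its log2 fold change of -0.15 ± 0.16 from growing to shHMGA1 (edgeR FDR = 0.731) and of -0.29 ± 0.16 from RIS to RIS+shHMGA1 (edgeR FDR = 0.146) did not pass the threshold. The library labelled growing replicate 4 lay at 77.3 on the first principal component, within the range of the RIS+shHMGA1 libraries (52.5 to 84.1) and away from the other growing libraries (-84.3 to -57.2). The library labelled RIS replicate 2 lay at -77.1, within the range of the growing libraries and away from the other RIS libraries (16.8 to 62.1). Both were kept in their labelled groups, and tests of the 10 genes that use them are given with and without them. Fibroblast markers such as COL1A1, COL1A2 and VIM were detected in every library. Of the leukocyte markers, AIF1 and TYROBP were at 0 in all 24 libraries, PTPRC reached at most 0.688 CPM, LYZ at most 1 count, and CD68 (40.2 to 105 CPM) made up most of the summed level, which ranged from 42.4 to 110 CPM. FCER1G, at most 28 counts, was the leukocyte marker called in 1 comparison with all libraries, from shHMGA1 to RIS+shHMGA1 (log2 3.08 ± 0.66, edgeR FDR = 0.000796). The 5 epithelial markers summed to at most 1.68 CPM, and of the endothelial markers only TEK (13.1 to 123 CPM) exceeded 1.27 CPM.

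IL-1α and IL-1β signal through IL1R1, which recruits the co-receptor IL1RAP and, inside the cell, the adaptor MyD88 and kinases of the IRAK family, and so activates NF-κB. IL1RN encodes an antagonist that occupies IL1R1 without recruiting the co-receptor. IL-1β is made as a precursor that CASP1 cleaves within inflammasomes such as that of NLRP3, whereas CASP4 is the human sensor of cytosolic lipopolysaccharide in the non-canonical pathway, and IL-1 is known as an upstream regulator of the cytokine secretion of senescent fibroblasts.

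The promoter sequences below are shown because IL1A, IL1B and IL1RN, which lie in 1 cluster on chromosome 2 and rose together with RAS, and the receptor gene IL1R1, hold letters there that match motifs of inducible transcription factors. Windows of 250 bases before to 50 after each annotated start were taken from the RefSeq table (GRCh38.p14), which held 16 windows for 9 of the 10 genes, and the printed stretches were located in GRCh37. Capitals mark the motif, each sequence is read 5′ to 3′ on the strand of the gene, and both strands were searched.
IL1A, AP-1, chr2:113542016-113542042, minus strand: cattggcgttTGAGTCAgcaaaggtat
IL1A, AP-1, chr2:113542066-113542092, minus strand: cgaagaagacTGACTCAggcttaagct
IL1B, C/EBP, chr2:113594554-113594581, minus strand: ggtgatacatTTGCAAAAtgtgtcatag
IL1RN, AP-1, chr2:113875315-113875341, plus strand: tctgctagccTGAGTCAccctcctgga
IL1RN, IRF, chr2:113884935-113884962, plus strand: aatgaagggGAAATAGAAAtcttaattt
IL1R1, C/EBP, chr2:102758275-102758300, plus strand: ggccagtcacTTGCTGAAgactagcg
The AP-1 motif was searched as TGANTCA, and both of its sites at IL1A lay within the windows of both annotated starts, beginning at positions -12 and 38 from one start and at positions -105 and -55 from the other. At IL1RN it began at position -223 from one start. The C/EBP motif was searched as TTGCNNAA and the interferon regulatory factor (IRF) motif as GAAA repeated after 2 further bases. Of 35116 promoter windows of the same length, 7.71% held the AP-1 letters, 10.5% the C/EBP letters and 3.57% the IRF letters. The NF-κB consensus, held by 5.91% of all windows, was found in none of the 16 windows of these genes. A match describes the letters in the window and no binding was measured here.

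In hairpin cells, both agonists, IL33, the antagonist, the kinase and the inflammasome sensor were higher with 4OHT, which switches RAS on. CASP1 and the co-receptor were lower. Of the 10 genes, 6 rose and 2 fell from shHMGA1 to RIS+shHMGA1 in the edgeR quasi-likelihood test with a false discovery rate (FDR) below 0.01 and a log2 fold change beyond 0.58 in either direction. Of all 13356 genes tested, 39.1% were called in this comparison, 19.6% higher and 19.5% lower. IL33, IL1RN and NLRP3, which entered the test through the libraries with 4OHT where they are high, make up 3 of the 6, so that the count is not support for a rise. Of the 7 genes that would have passed the filter without 4OHT, IL1A, IL1B and IRAK2 rose and IL1RAP and CASP1 fell. Median log2 fold change was 1.62 over the 10 genes and -0.02 over all genes tested. The groups did not overlap for 7 genes that were higher and 2 that were lower, against 20.9% and 22.5% of all genes. The median and the 7 genes without overlap that were higher include IL33, IL1RN and NLRP3, so that neither is support for a rise. Neither library that stood apart belongs to these groups, although both enter the shared estimate of dispersion.

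**Figure D1:**
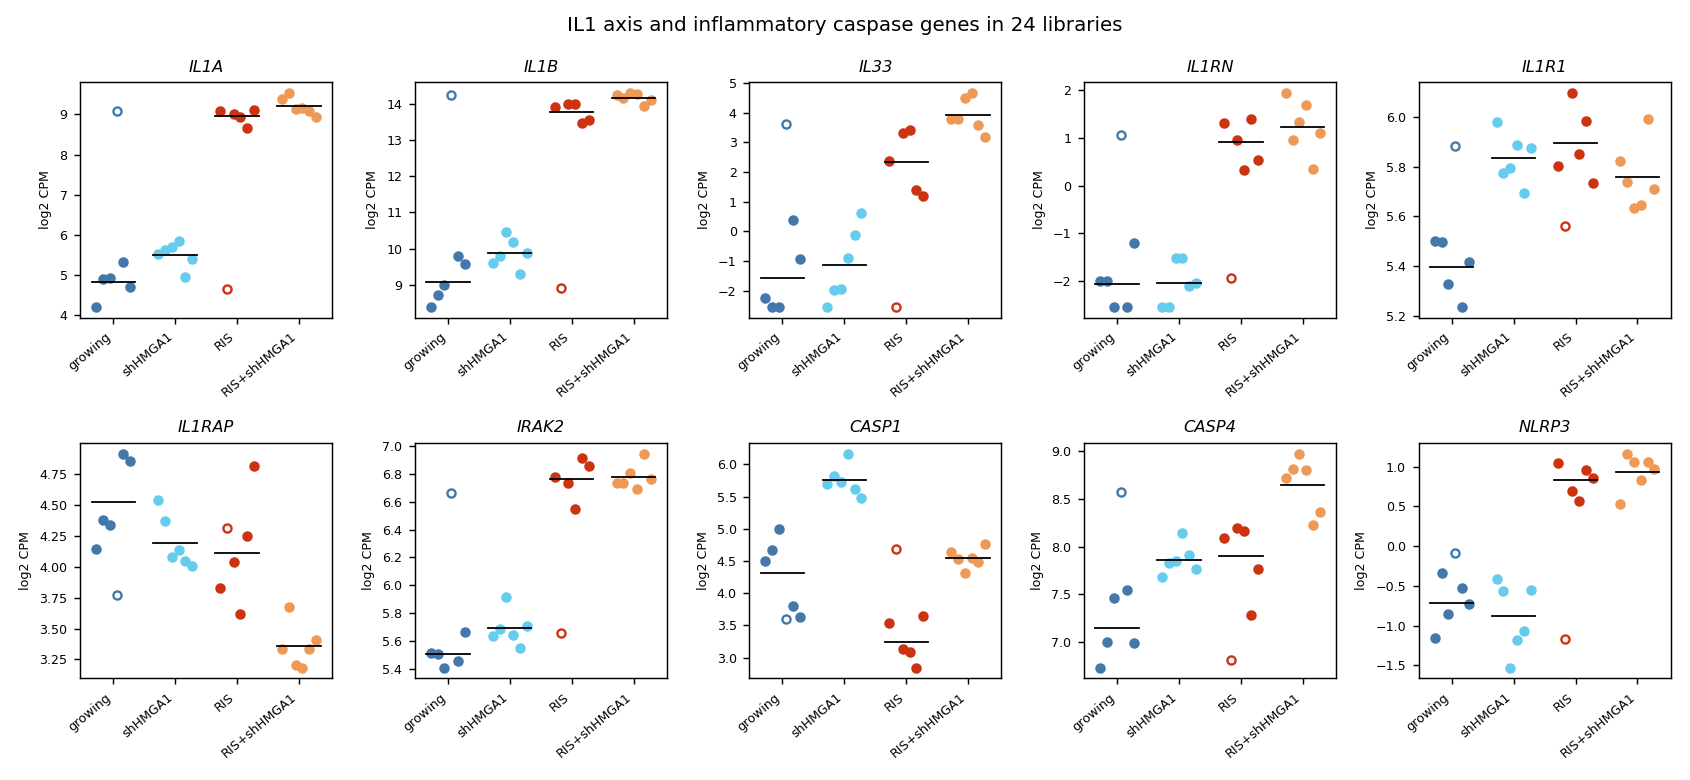
Each panel plots log2 CPM of 1 gene in the 24 libraries by group, with points for libraries and lines for group means without growing replicate 4 and RIS replicate 2, which are open. For IL1A the 6 RIS+shHMGA1 libraries lie above the 6 shHMGA1 libraries, and the open growing point lies among the RIS points.

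IL1B had the highest level of the 10 genes per kilobase of transcript in each group. In shHMGA1 cells it lay between 627 and 1418 CPM with a median of 918, and in RIS+shHMGA1 cells between 15566 and 20056 CPM with a median of 18790. In growing cells it lay between 336 and 883 CPM with a median of 510 in 5 libraries and at 19328 CPM in replicate 4. In RIS cells it lay between 11234 and 16363 CPM with a median of 15453 in 5 libraries and at 482 CPM in replicate 2. Apart from these 2 libraries, every library with 4OHT was above every library without it. IL1B made up 1.24% to 1.55% of all counts in the 5 RIS libraries and 1.44% to 1.62% in RIS+shHMGA1, compared with 0.0367% to 0.0975% in the 5 growing libraries and 0.0721% to 0.156% in shHMGA1. Its log2 fold change was 4.25 ± 0.91 (SE) from shHMGA1 to RIS+shHMGA1 (edgeR FDR = 0.000755).

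IL1A, whose precursor is itself active and can be held at the cell surface, lay between 30.6 and 57.2 CPM with a median of 47.7 in shHMGA1 cells and between 490 and 740 CPM with a median of 566 in RIS+shHMGA1 cells. In growing cells it lay between 18.3 and 39.9 CPM with a median of 29.9 in 5 libraries and at 542 CPM in replicate 4. RIS cells had 407 to 553 CPM with a median of 515 in 5 libraries and 24.9 CPM in replicate 2. As for IL1B, the groups with and without 4OHT overlapped through these 2 libraries and through no other. IL1A rose 12.9-fold from shHMGA1 to RIS+shHMGA1, a log2 fold change of 3.69 ± 0.75 (edgeR FDR = 0.000524). Per kilobase of its canonical transcript, IL1B exceeded IL1A in every library outside those 2, with median ratios of 24.5 and 27.2 in growing and shHMGA1 cells and of 38.3 and 42.1 in the corresponding cells with RAS. The ratios ranged from 18.9 to 39.4 in growing and from 33.2 to 47.8 in RIS+shHMGA1 cells and were not tested.

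IL33, a nuclear cytokine released by damaged cells, was nearly absent without 4OHT. Its counts ranged from 0 to 13 in 5 growing libraries and from 0 to 19 in shHMGA1 libraries, compared with 95 in growing replicate 4. With 4OHT they ranged from 23 to 123 in 5 RIS libraries and from 89 to 260 in RIS+shHMGA1 libraries, and RIS replicate 2 had 0 counts, which allows up to 3 by counting error. RIS+shHMGA1 libraries were all above the shHMGA1 libraries, and the log2 fold change was 5.05 ± 1.1 (edgeR FDR = 0.000848). RIS replicates 5 and 6, at 2.45 and 2.10 CPM, were lower than RIS replicates 1, 3 and 4, at 4.96, 9.86 and 10.5 CPM. Numbers 5 and 6 were also the lowest of their group in RIS+shHMGA1, at 11.9 and 8.83 CPM against 13.5 to 25.2 CPM.

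IL1RN, the receptor antagonist, rose with the agonists from almost no reads. It had 0 to 2 counts in shHMGA1 libraries and 11 to 29 in RIS+shHMGA1 libraries, a log2 fold change of 4.69 ± 0.85 (edgeR FDR = 0.000279). Growing libraries had 0 to 3 counts, with 15 in replicate 4, and RIS libraries had 10 to 29, with 1 in replicate 2. Per kilobase, its median in RIS+shHMGA1 cells was 1.27 CPM against 281 CPM for IL1A and 12468 CPM for IL1B. Balance between agonists and antagonist was measured within each library as the log2 ratio of IL1A plus IL1B to IL1RN, with 0.5 CPM added to both. The mean log2 ratio was 12.8 in RIS+shHMGA1 and 10.7 in shHMGA1 cells, a difference of 2.04 (two-sided exact permutation test, p = 0.00216, the smallest this design can give, adjusted p = 0.00866 over 4 comparisons). With 0.1 CPM added the difference was 0.50 (exact permutation test, adjusted p = 0.416), so that at these IL1RN counts the value is set by the pseudocount and the relative change of agonists and antagonist was not resolved.

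The receptor chains behaved differently from the ligands. IL1R1, the ligand-binding chain, was expressed in all groups, with medians of 42.6 CPM in 5 growing, 56.9 CPM in shHMGA1, 57.6 CPM in 5 RIS and 52.7 CPM in RIS+shHMGA1 libraries. Between shHMGA1 (51.5 to 63.0 CPM) and RIS+shHMGA1 (49.4 to 63.4 CPM) the groups overlapped, and the log2 fold change was -0.08 ± 0.11 (edgeR FDR = 0.54). IL1RAP, the co-receptor shared by IL-1 and IL-33, fell in the same comparison, from 15.8 to 23.1 CPM with a median of 17.0 to 8.92 to 12.6 CPM with a median of 9.91. No RIS+shHMGA1 library reached the lowest shHMGA1 library, and the log2 fold change was -0.85 ± 0.19 (edgeR FDR = 0.00109). IRAK2, a kinase that sustains signalling downstream of the receptor, rose from 46.6 to 60.1 CPM with a median of 50.7 to 103 to 123 CPM with a median of 108, without overlap (log2 fold change 1.09 ± 0.19, edgeR FDR = 0.000272). IRAK2 in growing cells lay between 42.4 and 50.5 CPM in 5 libraries and at 101 CPM in replicate 4, and in RIS cells between 93.5 and 120 CPM in 5 libraries and at 50.3 CPM in replicate 2. Reads on the opposite strand could contribute to IL1R1, which shares 7254 bases with IL1R1-AS1, because the libraries were stranded but the strand setting of the counting is not given in the sources used here.

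The inflammatory caspases differed in direction. CASP1 lay between 44.5 and 71.5 CPM with a median of 52.2 in shHMGA1 cells and between 19.7 and 27.0 CPM with a median of 23.1 in RIS+shHMGA1 cells. The ranges did not overlap, and CASP1 fell by 1.22 on the log2 scale (SE 0.26, edgeR FDR = 0.000809). CASP4 lay between 206 and 282 CPM with a median of 229 in shHMGA1 cells and between 299 and 503 CPM with a median of 434 in RIS+shHMGA1 cells. Here too the ranges did not overlap, but the log2 fold change of 0.80 ± 0.26 missed the threshold with all 24 libraries (edgeR FDR = 0.0111) and passed it without the 2 libraries (0.80 ± 0.16, edgeR FDR = 0.000113), when 44.4% of all genes were called. NLRP3, the sensor, had 2 to 7 counts in shHMGA1 and 10 to 22 counts in RIS+shHMGA1 libraries and rose by 2.14 ± 0.34 on the log2 scale (edgeR FDR = 0.000199). At these counts NLRP3 did not exceed 2.07 CPM in any group, and the gene overlaps a long non-coding RNA annotated on the same strand over 32448 bases, whose reads cannot be told apart from it in these counts.

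In vector cells the same comparison depended on the 2 libraries that stood apart. With all 24 libraries, 0 of the 10 genes passed the threshold from growing to RIS in edgeR's test, and 0% of all genes did. DESeq2 called 2 of the 10 genes, IRAK2 and NLRP3, and at an unadjusted p under 0.05 edgeR counted 4407 of 13356 genes (33%). Log2 fold changes were 1.89 ± 0.70 for IL1A (edgeR FDR = 0.0662), 1.69 ± 0.82 for IL1B (FDR = 0.152), 1.33 ± 0.96 for IL33 (FDR = 0.338) and 2.32 ± 0.72 for IL1RN (FDR = 0.036). The 2 groups overlapped for each of the 10 genes, and 0.367% of all genes were without overlap.

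Without growing replicate 4 and RIS replicate 2, 7 of the 10 genes rose and 1 fell, and 39.7% of 13416 genes tested were called, 19.2% higher and 20.5% lower. The 7 include IL33, IL1RN and NLRP3, which passed the filter through libraries with 4OHT, so that the count is not support for a rise. IL1A rose 17.4-fold (log2 4.12 ± 0.19, edgeR FDR = 1.10e-14) and IL1B rose 24.4-fold (log2 4.61 ± 0.26, edgeR FDR = 3.31e-13). IL33 rose by 4.51 ± 0.72, IL1RN by 4.30 ± 0.52, NLRP3 by 1.89 ± 0.26 and IRAK2 by 1.26 ± 0.09 on the log2 scale. CASP4 rose by 0.76 ± 0.18 and CASP1 fell by 1.15 ± 0.21 on the log2 scale. CASP1 lay between 12.2 and 31.8 CPM with a median of 22.4 in the 5 growing libraries and between 7.02 and 12.3 CPM with a median of 8.58 in the 5 RIS libraries. These ranges touched, since growing replicate 6 (12.2 CPM) was just below RIS replicate 6 (12.3 CPM). The groups did not overlap for 7 genes, all of them higher in RIS, against 15.8% of all genes higher. IL33, IL1RN and NLRP3 are again included, so that this count is not support either. IL1R1 was among these 7, with a log2 fold change of 0.50 ± 0.09 that was below the fold threshold (edgeR FDR = 6.52e-05), and IL1RAP was not called (-0.38 ± 0.18, edgeR FDR = 0.0751).

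**Figure D2:**
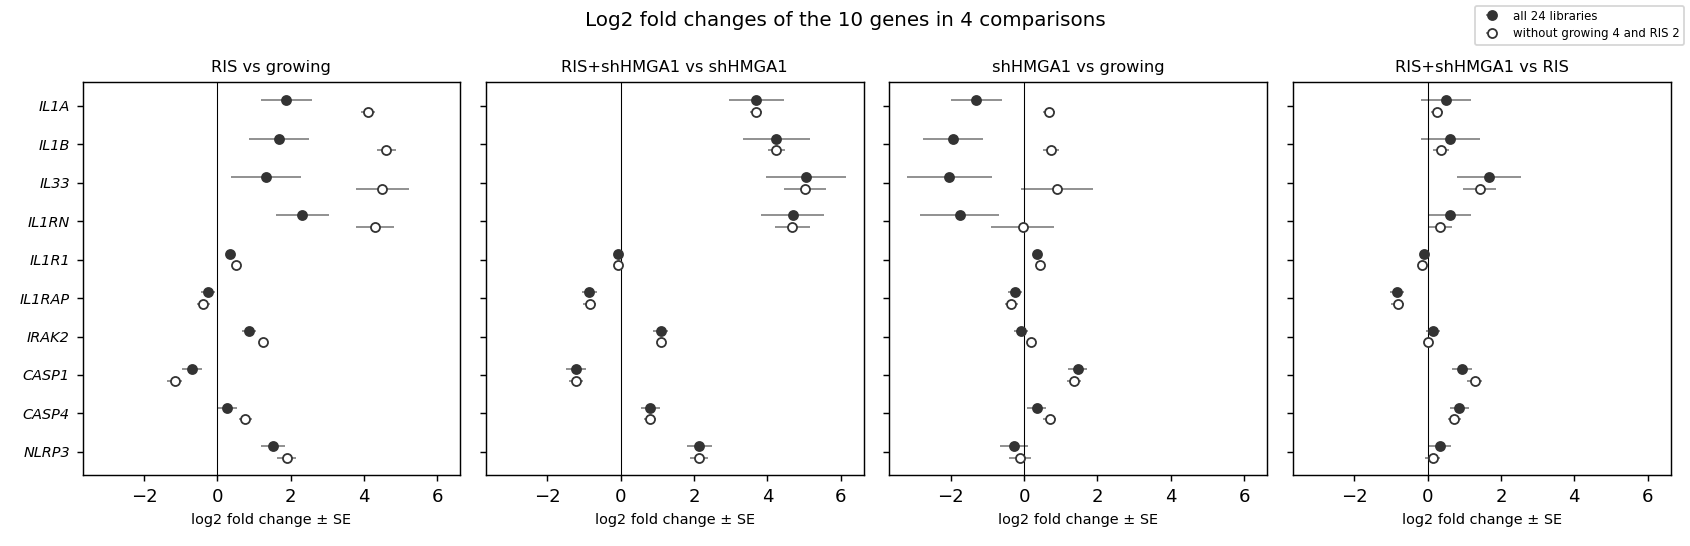
Log2 fold changes of the 10 genes with their standard errors from edgeR are plotted for 4 comparisons, filled with all 24 libraries and open without growing replicate 4 and RIS replicate 2. From growing to RIS the open IL1A point lies at 4.12 and the filled one at 1.89, while both lie at 3.69 from shHMGA1 to RIS+shHMGA1.

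The effect of the hairpin without RAS was seen for CASP1. From growing to shHMGA1, CASP1 rose from between 12 and 31.8 CPM to between 44.5 and 71.5 CPM, a 2.76-fold change (log2 1.46 ± 0.26, edgeR FDR = 0.0061). It was the 1 gene of the 10 that was called and the 1 whose groups did not overlap, against 0.27% of all genes called, 0.135% higher, and 1.3% without overlap. Without growing replicate 4 and RIS replicate 2 the log2 fold change of CASP1 was 1.36 ± 0.19 (edgeR FDR = 9.09e-05), with 2.59% of all genes called and 6.85% without overlap. CASP1 was also lower in growing replicates 4, 5 and 6 (12 to 13.8 CPM) than in growing replicates 1, 2 and 3 (22.4 to 31.8 CPM). Leaving out number 1, 3, 4, 5 or 6 in all groups, or fitting the 2 groups alone, ended the call, with log2 fold changes between 1.25 and 1.66 over the 6 fits without a number. CASP4 was higher in each shHMGA1 library (206 to 282 CPM) than in the 5 growing libraries (106 to 187 CPM), while growing replicate 4 had 380 CPM, and its log2 fold change without the 2 libraries was 0.69 ± 0.17 (edgeR FDR = 0.0109).

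For the ligands the sign of the hairpin's effect without RAS was set by growing replicate 4. With it, the log2 fold change from growing to shHMGA1 was -1.30 ± 0.69 for IL1A (edgeR FDR = 0.428) and -1.94 ± 0.82 for IL1B (edgeR FDR = 0.304). Without the 2 libraries it was 0.68 ± 0.17 for IL1A (edgeR FDR = 0.011) and 0.74 ± 0.22 for IL1B (edgeR FDR = 0.0264), neither of which passed the threshold. IL1A ranges of 30.6 to 57.2 CPM in shHMGA1 and 18.3 to 39.9 CPM in the 5 growing libraries overlapped. IL1R1 had a log2 fold change of 0.44 ± 0.09 without the 2 libraries, and its groups did not overlap, but the change was below the fold threshold (edgeR FDR = 0.00332).

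With RAS on, the co-receptor was lower in the hairpin libraries, in a call that depended on the libraries and settings used. Without RAS its log2 fold change from growing to shHMGA1 was -0.25 ± 0.19 (edgeR FDR = 0.618), which was not called. IL1RAP lay between 12.1 and 27.9 CPM with a median of 17.5 in RIS and between 8.92 and 12.6 CPM with a median of 9.91 in RIS+shHMGA1 cells. The ranges overlapped by RIS replicate 4 (12.1 CPM) and RIS+shHMGA1 replicate 2 (12.6 CPM), and IL1RAP fell by 0.84 on the log2 scale (SE 0.19, edgeR FDR = 0.00923). It was the 1 gene of the 10 called, against 2.55% of all genes, 0.786% lower. The call was lost without number 1, 2, 3, 5 or 6 in all groups, without RIS replicate 2 alone (-0.82, edgeR FDR = 0.0198), without a filter on low counts and in a fit of the 2 groups alone. It passed without growing replicate 4 and RIS replicate 2 (-0.82 ± 0.18, edgeR FDR = 0.00276), and when numbers 5 and 6 were left out as well IL1RAP fell by 0.51 and was not called (edgeR FDR = 0.0199).

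The 2 caspases passed the threshold between RIS and RIS+shHMGA1 when growing replicate 4 and RIS replicate 2 were left out. CASP4 lay between 156 and 293 CPM in 5 RIS libraries, at 112 CPM in RIS replicate 2 and between 299 and 503 CPM in RIS+shHMGA1 libraries, without overlap, as for 13.2% of all genes. Its log2 fold change was 0.87 ± 0.26 with all libraries (edgeR FDR = 0.0202) and 0.73 ± 0.17 without the 2 libraries (edgeR FDR = 0.00299). CASP1 lay between 7.02 and 12.3 CPM in 5 RIS libraries and between 19.7 and 27.0 CPM in RIS+shHMGA1 libraries, while RIS replicate 2 had 25.5 CPM. Its log2 fold change was 0.93 ± 0.27 with all libraries (edgeR FDR = 0.0179) and 1.29 ± 0.20 without the 2 libraries (edgeR FDR = 0.00038). Without them CASP1, CASP4 and IL1RAP were the 3 genes called, against 12.5% of all genes, and CASP1 and CASP4 were the 2 without overlap, against 14.8% of all genes. In CASP4, RIS replicate 5 (156 CPM) and replicate 6 (218 CPM) were lower than RIS replicates 1, 3 and 4 (274 to 293 CPM), and the same numbers were lowest in RIS+shHMGA1 (299 and 328 CPM against 422 to 503 CPM).

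**Figure D3:**
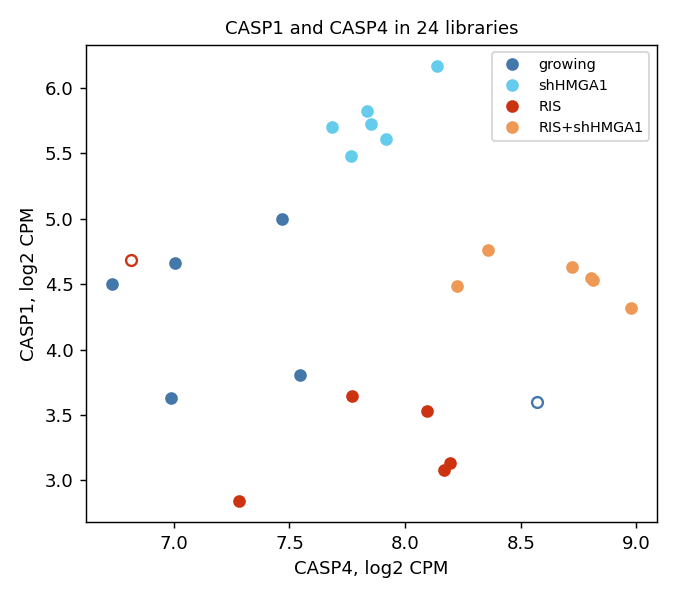
CASP1 against CASP4 in log2 CPM is plotted for the 24 libraries, coloured by group, with growing replicate 4 and RIS replicate 2 open. The shHMGA1 libraries lie highest for CASP1 (44.5 to 71.5 CPM) and the RIS+shHMGA1 libraries lie furthest to the right for CASP4 (299 to 503 CPM), apart from the open growing point at 380 CPM.

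The other members were not called between RIS and RIS+shHMGA1. Log2 fold changes without the 2 libraries were 0.25 ± 0.16 for IL1A (edgeR FDR = 0.209), 0.37 ± 0.22 for IL1B (FDR = 0.174), 0.34 ± 0.31 for IL1RN (FDR = 0.388) and 0.01 ± 0.08 for IRAK2 (FDR = 0.921). IL33 had the widest change, at 1.42 ± 0.45 without the 2 libraries (edgeR FDR = 0.0167) and 1.68 ± 0.88 with them (edgeR FDR = 0.126). IL33 ranges of 2.10 to 10.5 CPM in 5 RIS libraries and 8.83 to 25.2 CPM in RIS+shHMGA1 libraries overlapped. A test of whether the effect of RAS differed with and without the hairpin called 0 of the 10 genes and 0% of all genes in edgeR's test, with 1371 of 13356 genes (10.3%) at an unadjusted p under 0.05. Without the 2 libraries, 0 of the 10 genes and 1 of 13416 genes (0.00745%) were called, with 3.82% of all genes at an unadjusted p under 0.05. IL1R1 had the lowest FDR of the 10 genes in that test, with a log2 difference between the RAS effects of -0.58 ± 0.13 (edgeR FDR = 0.106). All RNA came from whole cultures, so that fewer cells expressing a gene and less of its RNA per cell cannot be told apart.

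IL1A, IL1B and IRAK2 varied together over the 24 libraries. Across libraries, which fall into groups with and without RAS and therefore give a description only, Pearson's correlation of log2 CPM was 0.994 between IL1A and IL1B and 0.974 between IL1A and IRAK2, and without growing replicate 4 and RIS replicate 2 it was 0.993 and 0.976. The 5 genes most like IL1A were NAMPT, PDE4B, IL1B, CXCL2 and DHX32 (0.991 to 0.995), among 10745 compared. For IL1B they were CXCL2, NAMPT, PDE4B, IL1A and SERPIND1 (0.992 to 0.996), and for IL33 they were MMP10, NEK6, PLIN2, ELL2 and IL12A (0.969 to 0.978). CASP1 and CASP4 had a correlation of 0.00, and of 0.06 without the 2 libraries. Those most like CASP1 were CARD16, HSD17B2, NUB1, LUM and TNFRSF11B (0.906 to 0.942). Over the 22 libraries without those 2, the 5 most alike shared 5 genes with these for IL1A, 5 for IL1B, 4 for IL33 and 4 for CASP1. LUM is one of the fibroblast markers. The summed fibroblast markers ranged from 14249 to 20247 CPM in shHMGA1 and from 4535 to 5910 CPM in RIS+shHMGA1 cells, so that they fell together with CASP1 there. Of the 9 markers, 8 were called lower in this comparison with all libraries, against 19.5% of all genes. With the hairpin the medians over all libraries moved in opposite directions. The sum went from 27098 CPM in growing to 18179 CPM in shHMGA1 cells, and CASP1 from 18.1 to 52.2 CPM. From RIS to RIS+shHMGA1 the sum went from 7429 to 4895 CPM, and CASP1 from 9.99 to 23.1 CPM. Single markers moved either way with the hairpin. Without the 2 libraries, LUM rose (log2 1.16 ± 0.22) and PDGFRB fell (-0.74 ± 0.15) from growing to shHMGA1. There 1 of the 9 markers was called higher and 1 lower, against 2.59% of all genes. From RIS to RIS+shHMGA1 without them, 2 were called higher, DCN (1.47 ± 0.23) and LUM (1.17 ± 0.23), and 3 lower, against 12.5% of all genes. The relation of CASP1 to the sum or to single markers was not tested.

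CARD16 lies beside CASP1 and encodes a protein much like the caspase recruitment domain of CASP1, so reads of this shared stretch may have been assigned to either gene or dropped. CARD16 had 22.1 to 53.6 CPM in shHMGA1 and 13.2 to 16.2 CPM in RIS+shHMGA1 libraries, and fell by 1.37 on the log2 scale (SE 0.30, edgeR FDR = 0.000933). Without growing replicate 4 and RIS replicate 2, CARD16 was also higher with the hairpin. It rose by 1.08 ± 0.24 from growing to shHMGA1 (edgeR FDR = 0.00706), beside 2.59% of all genes called. From RIS to RIS+shHMGA1 it rose by 1.08 ± 0.27 (edgeR FDR = 0.00429), beside 12.5% of all genes called. With all 24 libraries CARD16 was called in neither. Whether CASP1 or CARD16 gave these reads was not tested, for RAS or for the hairpin.

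IL1A, IL1B, IL1RN, IL1R1, CASP1 and CASP4 lie in 3 chromosomal clusters, whose other genes were chosen after their values had been seen. IL1A (chr2:113531502-113542070, minus strand, GRCh37) and IL1B (chr2:113587328-113594393, minus strand) are 45257 bases apart at one end of the IL-1 ligand cluster, and IL1RN (chr2:113856892-113891593, plus strand) lies at the other end. Of the 9 genes of the ligand cluster, IL1A, IL1B, IL1RN, IL36B and IL36RN were tested and called higher from shHMGA1 to RIS+shHMGA1, against 19.6% of all genes. IL1RN, IL36B and IL36RN had at most 7 counts in shHMGA1 libraries and passed the filter through the libraries in which they are high, so that their direction is no support for a rise of the cluster. IL36B, an agonist of the IL-36 receptor, had at most 83 counts and a log2 fold change of 5.36 ± 1.19 (edgeR FDR = 0.00094). IL36RN, its antagonist, rose from 0.0727 to 0.614 CPM in shHMGA1 to 14.1 to 93.5 CPM in RIS+shHMGA1 libraries (log2 7.19 ± 1.63, edgeR FDR = 0.00109). In IL36RN as in IL33, numbers 5 and 6 were lower than the rest, at 13.2 and 5.75 CPM in RIS against 63.1 to 70.3 CPM in RIS replicates 1, 3 and 4. The other 4 genes of the cluster, IL37, IL36G, IL36A and IL1F10, had at most 12 counts in any library and were not tested.

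In the receptor cluster, IL1R1 (chr2:102681004-102796334, plus strand, GRCh37) lies near IL1RL1, the IL-33 receptor, which fell by 1.28 on the log2 scale from shHMGA1 to RIS+shHMGA1 (SE 0.39, edgeR FDR = 0.0074). The IL1RL1 ranges overlapped, at 1.76 to 7.38 CPM in shHMGA1 and 0.869 to 2.19 CPM in RIS+shHMGA1 libraries. Numbers 5 and 6 were the highest in shHMGA1, at 7.38 and 5.31 CPM. IL1RL1 was over the low-count cutoff in 8 libraries without 4OHT and 5 with it, so that its direction is no support for a fall. From growing to RIS without the 2 libraries its log2 fold change was -0.59 ± 0.50 (edgeR FDR = 0.31). IL1R2, the decoy receptor, had at most 3 counts in any library. In the caspase cluster, CASP4 (chr11:104813593-104840093, minus strand) and CASP1 (chr11:104896124-104905977, minus strand) are 56030 bases apart. CASP12 fell by 1.80 (SE 0.40, edgeR FDR = 0.000891) in the same comparison, and CASP5, between CASP4 and CASP1, had at most 3 counts. Within 1 cluster CASP1, CASP12 and CARD16 were thus called lower, while CASP4 was higher but missed the threshold with all 24 libraries.

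Genes that IL-1 is known to induce were mostly higher with RAS, as the ligands were. The list was chosen with earlier results of these data known, so that its counts and median are no independent support. Whether these genes depended on IL-1 was not tested. Of 25 such genes, 21 rose and 1 fell from shHMGA1 to RIS+shHMGA1, with a median log2 fold change of 2.56 against -0.02 over all genes, of which 19.6% were called higher and 19.5% lower. The chemokine genes CXCL5 (6.41 ± 1.51), CCL7 (6.35 ± 1.2), CCL20 (6.05 ± 1.2) and CXCL3 (5.99 ± 1.33) had the largest changes on the log2 scale, with edgeR FDR values between 0.000331 and 0.00141. CCL7 had 0 or 1 count in each shHMGA1 library and passed the filter through the libraries in which it is high, so that its fold change depends on counts near 0. VCAM1, an adhesion molecule that IL-1 induces in endothelium, was the gene that fell (-4.26 ± 0.74, edgeR FDR = 0.000243). It was over the low-count cutoff in 9 libraries without 4OHT and in 1 with it. VCAM1 thus passed the filter through the libraries in which it is high, so that its direction is no support for a fall. From growing to RIS 0 of the 25 were called with all libraries, and 22 rose and 1 fell without the 2 libraries, when 39.7% of all genes were called. From growing to shHMGA1 0 of the 25 were called with all libraries and 5 were higher without the 2 libraries, against 0.27% and 2.59% of all genes called, among them CXCL3 (1.78 ± 0.37, edgeR FDR = 0.0036) and PTGS2 (1.42 ± 0.24, edgeR FDR = 0.000606). Between RIS and RIS+shHMGA1, CCL2 (2.67 ± 0.36, edgeR FDR = 0.000287) and TNFAIP6 (2.18 ± 0.47, edgeR FDR = 0.00692) rose with all libraries, and 2.55% of all genes were called. Without the 2 libraries 6 of the 25 were higher, when 12.5% of all genes were called, and CCL2 changed by 2.51 ± 0.29 (edgeR FDR = 1.38e-05) and TNFAIP6 by 1.96 ± 0.32 (edgeR FDR = 0.000465) on the log2 scale.

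Other genes of the pathway are read here against the 39.1% of all genes called from shHMGA1 to RIS+shHMGA1. Of 15 adaptors and kinases between receptor and target, 1 rose and 2 fell, with a median log2 fold change of -0.07. PELI1, a ubiquitin ligase of the IRAK complex, rose by 1.68 ± 0.38 on the log2 scale (edgeR FDR = 0.00118), TRAF6, the ligase downstream of IRAK, fell by 0.61 (SE 0.14, edgeR FDR = 0.000957), and IKBKG, the regulatory subunit of the IκB kinase, fell by 0.61 (SE 0.17, edgeR FDR = 0.00478). Of 8 other receptors and decoys, 5 were tested, and IL1RAPL1 rose (2.21 ± 0.42, edgeR FDR = 0.000366) while IL1RL1 fell, with the limits given above. Of 19 other inflammasome and pyroptosis genes, 11 were tested, 3 rose and 3 fell. CARD16, given above, was among those that fell. NLRP1, of the same list, had 9.90 to 14.9 CPM in shHMGA1 and 4.66 to 7.56 CPM in RIS+shHMGA1 libraries. TXNIP had 140 to 212 CPM in shHMGA1 and 87.7 to 113 CPM in RIS+shHMGA1 libraries. CASP8, which can also cleave the IL-1β precursor, rose by 1.14 ± 0.28 (edgeR FDR = 0.0017), the channel gene PANX1 by 1.13 ± 0.21 (edgeR FDR = 0.000318) and NINJ1, which ruptures the membrane of dying cells, by 0.97 ± 0.22 (edgeR FDR = 0.000923). Of 8 genes of IL-1 processing and release, 7 were tested and S100A13, a partner of IL-1α in its non-classical release, was the 1 called (1.43 ± 0.36, edgeR FDR = 0.0021).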

How the data were processed

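RNA-seq counts of 24 IMR90 cultures in 4 groups of 6 were analysed, grouped by the titles GEO holds. The authors prepared stranded mRNA libraries, sequenced them on a HiSeq-2500, trimmed and aligned the reads to hg19 (cutadapt 1.10.0 and STAR 2.5.0b in the submitters' processing notes) and counted reads per Entrez gene with Rsubread. The deposited values are raw counts, not normalised. The annotation and strand setting of the counting are not given in the sources used here. Symbols were matched from a RefSeq table for 23696 of 25702 identifiers.

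Counts were tested with edgeR 4.0.16 (limma 3.58.1, R 4.3.3): filterByExpr by group, TMM normalisation, 1 quasi-likelihood fit of 4 group means and Benjamini-Hochberg adjustment over all genes tested, with calls at an FDR below 0.01 and a log2 fold change beyond 0.58 in either direction. CPM used TMM library sizes, log2 CPM a prior count of 2, and CPM per kilobase the GENCODE canonical transcript length. Agonist to antagonist ratios were compared by two-sided exact permutation tests in scipy 1.17.1. The scripts were tested on simulated counts. Depth of 8698070 to 23103424 counts left IL33, IL1RN and NLRP3 limited by counting error, and a count of 0 allows up to 3. Intervals of this kind cover counting error only.

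The 10 genes, the gene lists and the markers were chosen with earlier results of these data known. All 10 genes are named. Genes of the lists were taken from the up to 4 called genes with the largest change per list and comparison, and not all of these are given. The 5 genes most correlated with IL1A, IL1B, IL33 and CASP1 among genes with a mean log2 CPM of at least 2 are named as well. HMGA2, VCAM1, NLRP1, TXNIP, the chromosomal clusters and the genes given for them outside these rules (CASP12, CASP5, IL1R2, IL37, IL36G, IL36A and IL1F10) were named after their values were seen. The lists held other IL-1 family ligands, other receptors and decoys, adaptors and kinases, inflammasome and pyroptosis genes, processing and release genes, IL-1-inducible targets and cell type markers. Alternatives were DESeq2 1.42.0, RLE normalisation, other filters on low counts, other pseudocounts, the replicate number as a block, fits of 2 groups alone, an FDR of 0.05 and leaving out libraries.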

Additional observations from a re-analysis of the deposited data

Results flagged for a closer look

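Among 44 checks of single libraries, each of 1 group of 6 in the 10 genes or in the agonist to antagonist ratio, 10 found a library further from the rest than Dixon's 95% critical value for its gap divided by the group's range. Chance gives about 1 in 20, or about 2 of 44. Growing replicate 4 was the library apart in 4 of them, with a ratio of gap to range of 0.771 in IL1A, 0.762 in IL1B, 0.631 in IL1RN and 0.799 in IRAK2. RIS replicate 2 was the library apart in the other 6, with ratios of 0.901 in IL1A, 0.893 in IL1B, 0.682 in IL1RN, 0.626 in IL33, 0.712 in IRAK2 and 0.782 in NLRP3. In these genes growing replicate 4 was above the other growing libraries and RIS replicate 2 was below the other RIS libraries, and the cause was not tested.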

How the results depend on the processing

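From shHMGA1 to RIS+shHMGA1, between 7 and 9 of the 10 genes were called in each alternative, beside 22.7% to 47.7% of all genes, and for the interaction 0 of the 10 and at most 0.0594% of all genes were called. From growing to RIS, where 0 were called with all libraries, DESeq2 called 2 (6.23% of all genes), an FDR of 0.05 called 3 (11.5%), leaving out growing replicate 4 gave 6 (25.4%), leaving out RIS replicate 2 gave 4 (19.2%), and leaving out both gave 8 (39.7%). Leaving out each number in turn gave 0 to 6 (0% to 15.6%). From growing to shHMGA1, where 1 was called, leaving out each number in turn gave 0 to 1 (0.0374% to 0.187%) and a fit of the 2 groups alone gave 0 (0.0388%). Between RIS and RIS+shHMGA1, where 1 was called, DESeq2 (12.8%), an FDR of 0.05 (21.7%), leaving out growing replicate 4 (19%) and leaving out both libraries (12.5%) each gave 3, no filter on low counts gave 0 (0.926%), a fit of the 2 groups alone gave 0 (2.58%) and leaving out each number in turn gave 0 to 2 (0.105% to 16.5%). Leaving out both libraries and numbers 5 and 6, an alternative chosen after seeing the data, gave 8, 4 and 3 genes in these comparisons (47.8%, 7.16% and 10.4%). The cause of these differences was not tested.

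Deviations of same-numbered libraries from their group means correlated above 0.1 in 24 of 36 pairs (mean 0.18, from -0.59 to 0.83). Libraries of different numbers had a mean of -0.05, and 10 of 24 libraries correlated best with their own number. The group means included growing replicate 4 and RIS replicate 2. These values do not settle whether the numbers pair the samples, and the replicate block was used as an alternative. The replicate block gave 3 called genes between RIS and RIS+shHMGA1 (12.3% of all genes). With the block and without growing replicate 4 and RIS replicate 2, 8 genes were called from growing to RIS, 2 from growing to shHMGA1 and 4 between RIS and RIS+shHMGA1 (39.1%, 3.61% and 14.4% of all genes).

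The log2 agonist to antagonist difference from shHMGA1 to RIS+shHMGA1 was 0.50 with 0.1 CPM added (exact permutation test, adjusted p = 0.416) and 2.04 in an exact sign-flip test within the replicate block (adjusted p = 0.0625). Without growing replicate 4 and RIS replicate 2 the difference was 2.72 from growing to RIS (exact permutation test, adjusted p = 0.0159) and 0.77 from growing to shHMGA1 (exact permutation test, adjusted p = 0.0346), the highest values over the settings that left out libraries, and the lowest were 1.43 and 0.0326.

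Of the values for single genes, 749 kept their direction and side of the threshold. With the direction kept, 79 gained a call and 17 lost one, and 41 changed sign. From growing to shHMGA1, IL1A, IL1B, IL33 and IRAK2 changed sign to 0.68, 0.74, 0.86 and 0.18 without growing replicate 4, to 0.59, 0.66, 0.88 and 0.17 without number 4, to 0.68, 0.74, 0.89 and 0.18 without growing replicate 4 and RIS replicate 2, and to 0.66, 0.68, 0.77 and 0.21 when the replicate block was added, with IL1RN at 0.0475. Without numbers 5 and 6 as well they were 0.99, 1.34, 2.23 and 0.26, with IL1RN at 0.50 and IL1RAP at 0.0204. IL1A and IL1B were called in that last setting alone. For the interaction, IL1A, IL1B and IRAK2 changed sign to -0.18, -0.11 and -0.04 without growing replicate 4, to -0.43, -0.37 and -0.17 without both libraries, and to -0.44, -0.27 and -0.19 when the replicate block was added. Without number 4, IL1A was -0.02 and IRAK2 -0.01. Without numbers 5 and 6 and both libraries, IL1A, IL1B, IL33, IRAK2, CASP1 and CASP4 were -0.70, -1.09, -1.11, -0.23, 0.0906 and -0.14. None of these interaction values was called. IL1R1 from shHMGA1 to RIS+shHMGA1 was 0.00674 without number 4. Over the fits without each number, IL1A, IL1B, IL33 and IRAK2 from growing to shHMGA1 went down to -1.54, -2.31, -3.02 and -0.19, IL1A, IL1B and IRAK2 in the interaction went up to 2.13, 3.01 and 0.35, and IL1R1 from shHMGA1 to RIS+shHMGA1 went down to -0.15. Depth limits IL33, IL1RN and NLRP3, whose counts without 4OHT were at most 19 outside growing replicate 4.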
